A study of Homo sapiens with 45 samples.

Results

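Lamin B1 domains of HCT116 cells were followed from nontargeting control cells to cells depleted of HNRNPK. The control list held 880 domains over 922.9 Mb and the knockdown list 730 domains over 684.5 Mb, together 1610 of the 8560 domains in the 7 deposited lists. Each control domain was classed by the part of it that lay in knockdown domains. Whole loss meant that no base was kept, and internal splitting meant that an uncovered gap of over 10 kb lay between kept pieces. The other domains were classed as retreat at both edges, retreat at one edge or full retention, according to how many edges had moved inward by over 10 kb.

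HCT116 is an established human colon cancer cell line. All cells received siRNA at 25 nM and were collected after 72 hours, the controls with a nontargeting siRNA and the knockdown cells with siRNA against HNRNPK. By the labels, lamin B1 was precipitated in 3 control and 3 knockdown libraries, and each siRNA has 1 domain list, so no domain value has a replicate and none was tested. RNA came from 4 control and 4 knockdown libraries, of which 2 in each group were made with the TruSeq and 2 with the Ligation kit. The Scramble controls were not used here.

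The nuclear lamina is a protein mesh under the inner nuclear membrane, and lamin B1 is one of its filament proteins. Chromatin that touches it forms broad lamina-associated domains, which are poor in genes, hold mostly silent or weakly transcribed genes, and often carry the repressive histone marks H3K9me2 and H3K9me3 in their cores and H3K27me3 at their borders. HNRNPK is the gene of hnRNP K, whose KH domains bind cytosine-rich stretches of RNA and of unpaired DNA.

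The promoters of 5 genes show what lay in lengths with different outcomes, and were taken as RefSeq gives them for GRCh38.p14, 250 bases before to 50 bases after a gene start, on the strand of the gene. MINAR1 (chr15:79432086-79432385, plus strand) and the bitter taste receptor gene TAS2R5 (chr7:141789967-141790266, plus strand) have promoters in wholly lost domains. That of PEX5L (chr3:179974176-179974475, minus strand) lay in an edge given up, that of FAM78B (chr1:166166952-166167251, minus strand) in an internal gap, and that of MITF (chr3:69739214-69739513, plus strand) in a fully retained domain. Each gene has 1 promoter here. Those of MINAR1 and PEX5L lie at a start inside the gene body (chr15:79411400-79472304 and chr3:179794958-180036937), so the outer start of these genes was not read. Capitals mark each CG dinucleotide, the site of cytosine methylation in mammals.
MINAR1: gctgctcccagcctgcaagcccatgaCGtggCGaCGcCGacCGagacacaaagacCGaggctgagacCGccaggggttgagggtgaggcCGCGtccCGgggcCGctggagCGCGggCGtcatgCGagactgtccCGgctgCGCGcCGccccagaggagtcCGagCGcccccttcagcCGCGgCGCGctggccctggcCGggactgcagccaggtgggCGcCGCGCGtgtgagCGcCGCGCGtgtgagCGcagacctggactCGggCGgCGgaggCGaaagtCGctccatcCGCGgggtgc
TAS2R5: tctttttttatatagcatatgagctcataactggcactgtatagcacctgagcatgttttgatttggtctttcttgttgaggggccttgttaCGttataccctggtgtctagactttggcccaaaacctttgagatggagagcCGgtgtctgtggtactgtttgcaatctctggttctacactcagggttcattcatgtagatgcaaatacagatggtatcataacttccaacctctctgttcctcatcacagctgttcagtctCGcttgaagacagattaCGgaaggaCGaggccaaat
PEX5L: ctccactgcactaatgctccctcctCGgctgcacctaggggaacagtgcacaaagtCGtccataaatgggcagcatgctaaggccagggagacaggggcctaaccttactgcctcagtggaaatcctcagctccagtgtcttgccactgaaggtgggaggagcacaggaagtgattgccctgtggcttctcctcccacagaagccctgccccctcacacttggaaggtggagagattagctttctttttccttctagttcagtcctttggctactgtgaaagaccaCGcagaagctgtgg
FAM78B: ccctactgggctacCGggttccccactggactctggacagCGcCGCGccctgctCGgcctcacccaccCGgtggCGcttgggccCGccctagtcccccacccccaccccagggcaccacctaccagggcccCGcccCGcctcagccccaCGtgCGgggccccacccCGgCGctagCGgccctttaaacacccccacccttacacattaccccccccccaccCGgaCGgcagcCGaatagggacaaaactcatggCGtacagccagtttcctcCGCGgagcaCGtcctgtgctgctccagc
MITF: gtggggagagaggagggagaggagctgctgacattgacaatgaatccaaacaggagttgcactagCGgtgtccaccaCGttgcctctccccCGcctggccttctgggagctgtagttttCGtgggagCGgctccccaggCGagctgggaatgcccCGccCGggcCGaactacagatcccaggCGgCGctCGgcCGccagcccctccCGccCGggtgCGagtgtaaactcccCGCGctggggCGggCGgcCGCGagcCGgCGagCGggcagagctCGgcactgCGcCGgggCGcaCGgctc

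CG was found 42 times in the promoter of MINAR1, 30 times in that of MITF and 22 times in that of FAM78B, against 5 times in TAS2R5 and 3 times in PEX5L. Over promoters of protein-coding genes, the median number of CG was 5 in wholly lost domains (n = 434), 10 in edges given up (n = 265), 22 in internal gaps (n = 50) and 10 in kept length (n = 796). The median over all 15843 such promoters was 22. At least 10 CG were present in 39.6% of promoters in wholly lost domains, 51.7% in edges, 80.0% in gaps and 51.9% in kept length, against 73.0% of all. The letters TATAAA, searched on both strands, were found in 25.8% of the promoters in wholly lost domains, 10.9% of those in edges, 2.00% of those in gaps and 16.6% of those in kept length, against 9.63% of all. Among protein-coding genes, promoters in wholly lost domains thus had fewer CG and more often TATAAA than the 50 in internal gaps. Over all genes with a promoter, wholly lost domains (n = 889) and kept length (n = 2539) had the same median of 3 CG. At least 10 CG were present in 26.0% and 26.7% of these, and TATAAA in 25.1% and 21.4%. A match describes the letters alone.

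In the lists as deposited, whole loss was the most frequent outcome by number, an order that turned once the 246 control domains below the lowest knockdown score were left out (173 whole losses against 250 retreats at both edges, of 634). Whole loss took 361 of the 880 control domains (41.0%, with a 95% Wilson interval of 37.8 to 44.3% for counting error only) and 141.5 Mb of the 922.9 Mb. Retreat at both edges was seen in 273 domains (31.0%), retreat at one edge in 115 (13.1%), internal splitting in 84 (9.55%) and full retention in 47 (5.34%). Domains that retreated at both edges held 415.8 Mb and kept 81.9% of it. Those that retreated at one edge kept 92.4% of 173.5 Mb, split domains kept 73.1% of 136.8 Mb and fully retained domains 99.6% of 55.3 Mb. Altogether 71.1% of the control length was kept. The share kept was often near an extreme. It was 0 in 361 domains, between 0 and 25% in 35, between 90 and 100% in 198, and 100% in 22. Among the domains with any kept base, the lowest share was 8.12%, in a domain of 1355 kb at chr2:165000001-166355000.

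The uncovered length was 266.8 Mb. Wholly lost domains made up 53.0% of it (141.5 Mb), edges of surviving domains 41.7% (111.3 Mb) and internal gaps 5.26% (14.03 Mb). Gaps uncovered far less than either of the others. The length in wholly lost domains was 85.2 Mb with the lowest score shared by both lists. With the control list trimmed to the length of the knockdown list it was 33.3 Mb, against 83.5 Mb at edges, so the order of these lengths turned.

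The domain score of the authors bears on the count of whole losses. The lowest score was 0.267 in the control list and 0.477 in the knockdown list, and its unit is not given in the sources used here. Of the control domains, 246 scored below the lowest knockdown score, and 188 of these were wholly lost (76.4%). Among the 634 at or above that score, 173 were wholly lost (27.3%), 250 retreated at both edges, 96 retreated at one edge, 77 were split and 38 were fully retained, and 76.4% of their length was kept. With the control list trimmed to its highest scores until it covered the length of the knockdown list, 12.1% of 428 control domains were wholly lost and 81.3% of their length was kept. Scores of surviving domains also differed between the lists. The knockdown score was the higher in 40 of 47 fully retained domains (median 0.946 in control, 1.27 in knockdown) and 90 of 115 with retreat at one edge. It was the higher in 131 of 273 with retreat at both edges and 27 of 84 split ones (median 1.24 and 0.765). A shared lowest score is thus not shown to be the same level of calling in both lists. How far the lists differ through the level at which domains were called was not tested.

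Width separated the outcomes, in part by construction, since an edge shift of a given length uncovers a larger share of a narrow domain. The narrowest domain was 80 kb in the knockdown list and 120 kb in the control list, and the narrowest gap 30 kb. Narrow control domains thus had little room to keep a small share or to be split. How far the outcomes by width follow from this was not tested. Whole loss took 269 of 370 domains (72.7%) of 100 to 500 kb, 82 of 223 (36.8%) of 500 kb to 1 Mb, 10 of 170 (5.88%) of 1 to 2 Mb and 0 of 117 above 2 Mb. The share of length kept was 18.7%, 40.6%, 74.5% and 94.1% in the same classes. Splitting was seen in 2 of the narrowest, 25, 40 and 17 domains in that order, and so most often at 1 to 2 Mb (23.5%). Wholly lost domains had a median width of 320 kb and none was wider than 1610 kb, whereas the median was 1060 kb for retreat at both edges, 1040 kb for retreat at one edge, 1410 kb for splitting and 585 kb for full retention. Full retention was thus a mixed class, from 120 kb to 5230 kb.

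**Figure D1:**
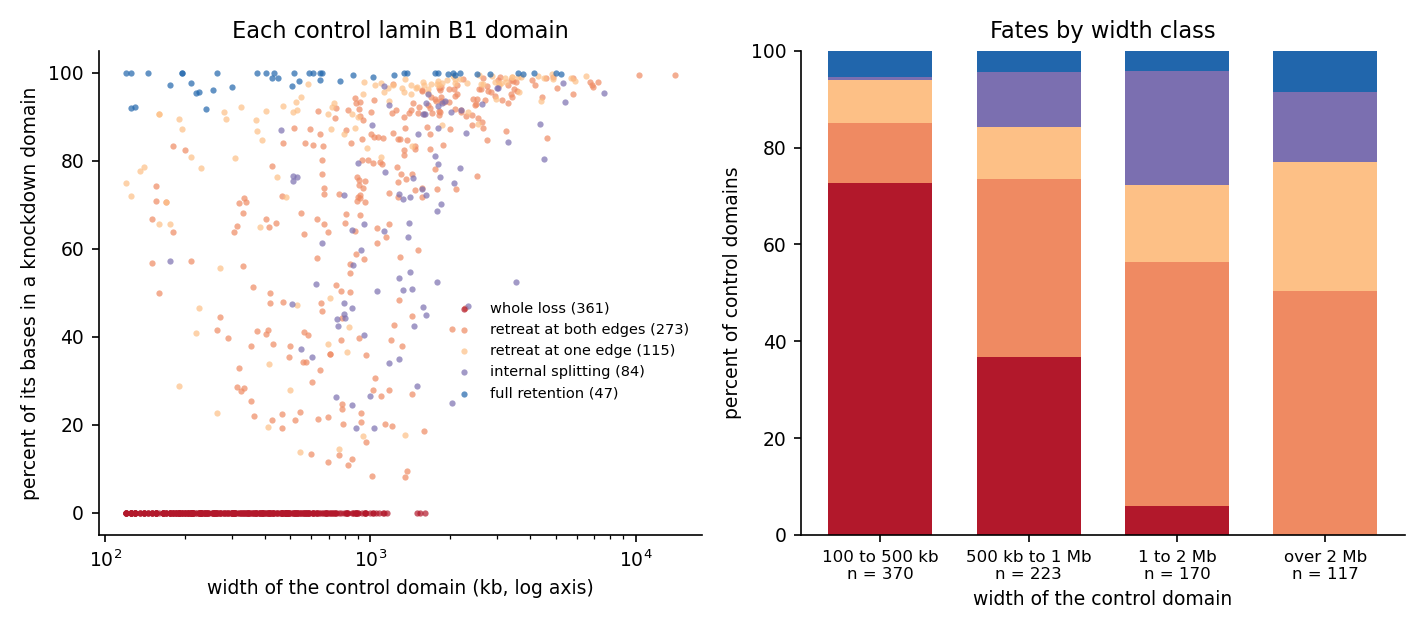
Left, percent of the bases of each of the 880 control lamin B1 domains that lay in a knockdown domain (y) against its width in kb on a log axis (x), coloured by fate with the number of domains. Right, percent of control domains with each fate, in the same colours, in 4 width classes; whole loss falls from 72.7% of the narrowest class to 0 of 117 domains in the widest.

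Control scores followed the same order and were tied to width, with a Spearman rho of 0.71 between score and width across the 880 domains, as a description. Whole loss took 168, 137, 48 and 8 of the 220 domains in each step of the score from the lowest to the highest. Within the 100 to 500 kb class it took 146 of 182 domains of the lowest step, 100 of 137 of the second, 22 of 43 of the third and 1 of 8 of the highest. Within the lowest step it took 146 of 182 domains at 100 to 500 kb and 22 of 38 at 500 kb to 1 Mb. Width and score each went with the outcome within classes of the other. The percent kept had a rho of 0.65 with width and of 0.61 with score, and among the 634 domains at or above the lowest knockdown score these were 0.64 and 0.51.

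Position along the chromosome went with the outcome far less. The rho of percent kept with the distance to the nearer chromosome end was -0.04 across 880 domains, and with the relative position between centromere and end it was -0.11 across the 759 domains that could be placed. The longest stretch without a RefSeq gene stood in for the centromere, and chromosomes 13, 14, 15, 21, 22 and Y were not placed. Whole loss took 79 of 243 domains (32.5%) in the inner part of the arms, 105 of 216 (48.6%) in the middle part and 137 of 300 (45.7%) in the outer part, with each arm divided in 3 equal parts. Full retention was seen in 24 of the inner, 2 of the middle and 18 of the outer domains. In the 100 to 500 kb class, whole loss took 58 of 95 inner, 77 of 87 middle and 99 of 132 outer domains, so the inner domains were kept more often at like width too. Short arms kept 77.7% of their domain length and long arms 66.1%.

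Chromosomes differed in the length kept, from 51.3% on Y, 56.3% on 22 and 57.6% on 12 to 79.8% on 14, 81.8% on X and 84.3% on 18, with only 21 higher. Chromosome 21 lost 1 of 11 domains and chromosome 11 lost 20 of 34. The 361 wholly lost domains formed 173 runs of neighbouring control domains. Of these runs 97 were of 1 domain, 32 of 2, and 44 of 3 or more, which held 200 domains. Whether runs are longer than the share of lost domains gives was not tested. The longest run was of 10 domains on chromosome 4, with 3.565 Mb of domains between positions 154820001 and 171825000, none of which held H3K27me3 or H3K9me2 in control cells.

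**Figure D2:**
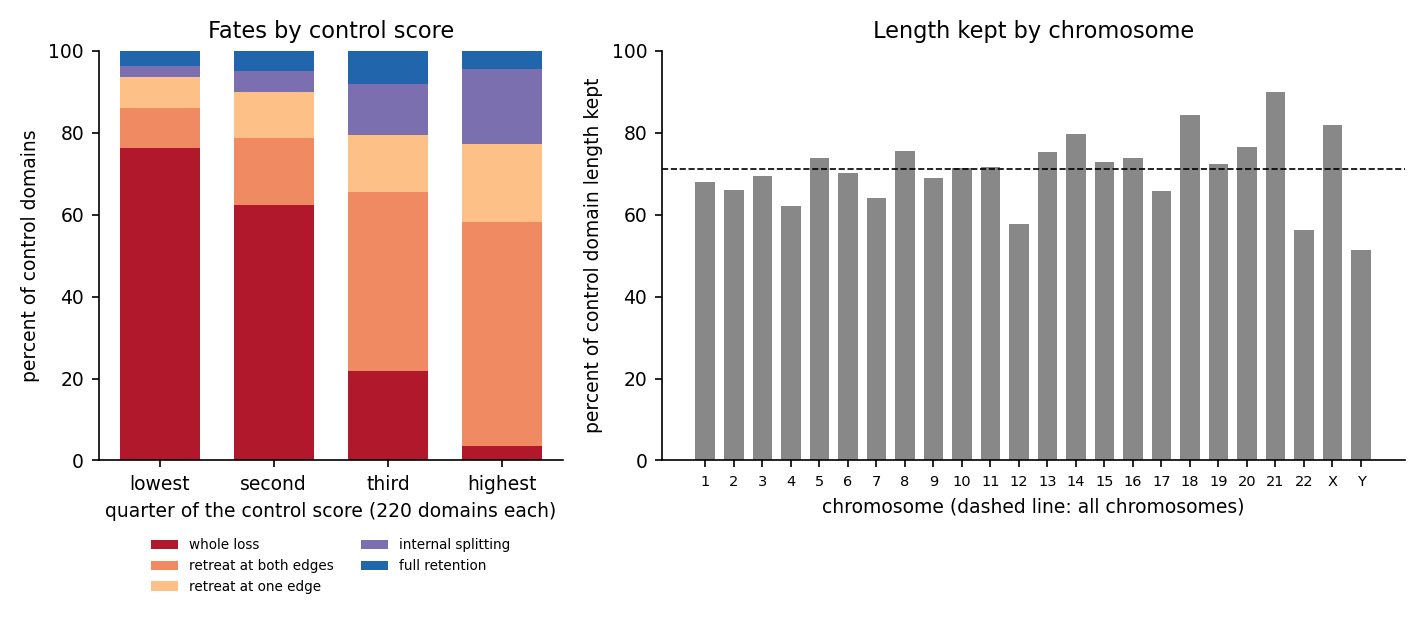
Left, percent of control lamin B1 domains with each fate (stacked colours) in 4 equal steps of the control score, 220 domains each; whole loss takes 168 domains of the lowest step and 8 of the highest. Right, percent of control domain length kept (y) on each chromosome (x), with a dashed line at 71.1% for all chromosomes; chromosome 21 is highest and Y lowest.

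Edges moved inward far more often than outward. The 519 surviving domains have 1038 edges, of which 802 (77.3%) lay inward of the control edge by over 10 kb, 158 within 10 kb and 78 outward. Left and right edges each moved inward 401 times. The median inward shift was 75 kb, with quartiles of 35 and 175 kb and a largest value of 1350 kb. Domain ends fall on steps of 5 kb, and 50 edges lay exactly 10 kb inward, just within the tolerance, against 51 at 15 kb, just outside it. Of the domains that retreated at one edge, 58 did so at the left and 57 at the right edge, and in 32 of them the other edge lay outward by over 10 kb. Retreat at both edges was often unequal. In 148 of 273 domains the larger retreat was at least 2 times the smaller, and in 68 the edges together gave up over 50% of the width.

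Around the 802 inward edges, the marks of control cells changed over different distances. At 5 kb inside the control edge, H3K27me3 covered 73.9% of edges, H3K9me2 14.7% and H3K9me3 8.60%. At 95 kb inside (775 edges), the values were 75.4%, 59.0% and 24.5% in that order. At 205 kb inside (710 edges that reach so far), H3K27me3 covered 65.6%, H3K9me2 72.3%, H3K9me3 43.8% and knockdown lamin B1 73.9%. At 405 kb inside (541 edges), the values were 46.0%, 83.7%, 66.0% and 87.8%. These edges were picked for knockdown lamin B1 that was absent over the first 10 kb, so its climb from 0 follows from the class. At 25 kb inside it covered 12.2% of edges, against 31.3% for H3K9me2, and at 175 kb each covered 70.5%. H3K9me3 began deeper, and H3K27me3 was highest near the edge, with 77.6% at 55 kb inside. At the 236 edges that held or moved outward, H3K9me3 covered 39.0% and H3K9me2 31.4% already at 5 kb inside, and H3K27me3 50.0%.

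**Figure D3:**
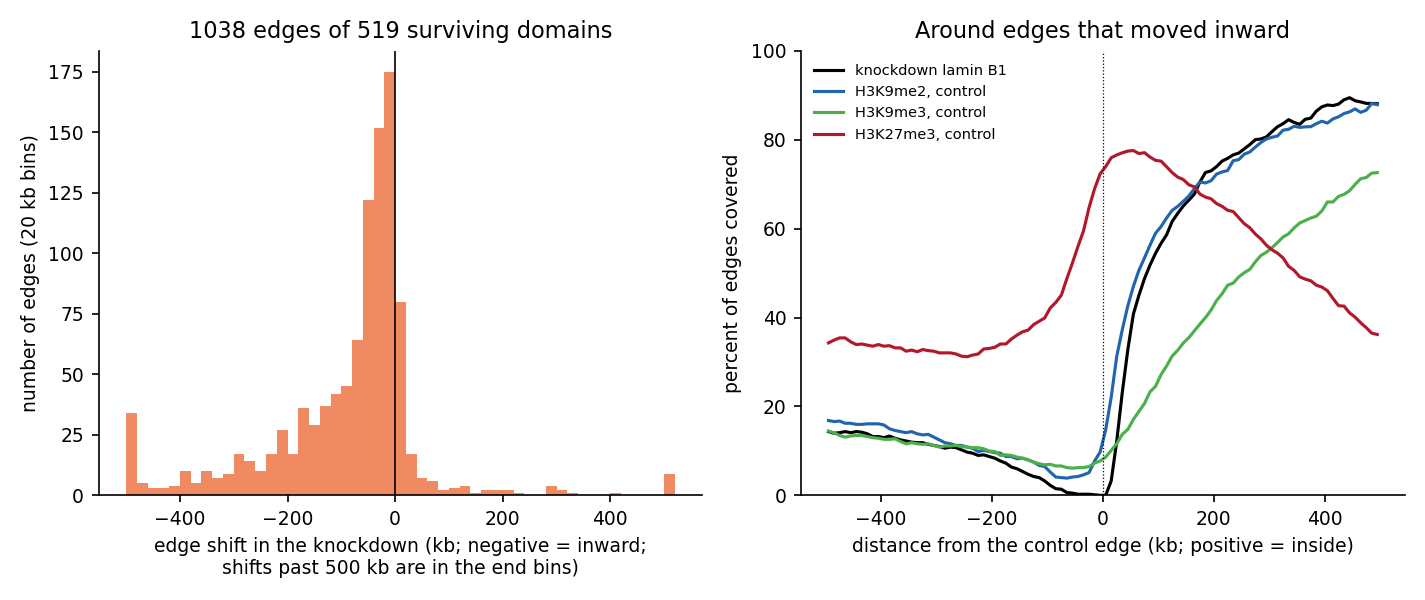
Left, number of edges (y, bins of 20 kb) by their shift in kb between control and knockdown (x, negative is inward), for the 1038 edges of 519 surviving lamin B1 domains; 802 are inward by over 10 kb. Right, percent of the inward edges covered (y) by knockdown lamin B1 and by 3 marks of control cells against distance in kb from the control edge (x, positive is inside). H3K27me3 peaks near the edge. Knockdown lamin B1, absent at the edge by the choice of these edges, meets H3K9me2 at 175 kb inside.

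Splitting opened 100 gaps in 84 domains, with a median gap of 92.5 kb and a range of 30 to 925 kb. In 71 domains 2 pieces remained, in 10 domains 3 pieces and in 3 domains 4 pieces. Retreat at an edge by over 10 kb accompanied the split in 78 of the 84. Of the 730 knockdown domains, 520 lay wholly inside control domains, 603 shared bases with 1 control domain and 8 joined 2 control domains each. The other 119, of 21.47 Mb, had no base in common with a control domain and were narrow, with a median of 130 kb.

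The histone marks of control cells, which played no part in the classing, set the outcomes apart. H3K9me2 covered 19.0% of the length of wholly lost domains, 72.8% in split domains, 82.1% with retreat at both edges, 89.0% with retreat at one edge and 90.1% with full retention. H3K9me3 covered 5.42%, 51.3%, 67.6%, 83.4% and 88.7% in that order, and H3K27me3 77.1%, 48.9%, 38.2%, 23.3% and 21.3%. Of the 361 wholly lost domains, 317 held no H3K9me3 and 267 no H3K9me2, and 262 were covered by H3K27me3 over at least 50% of their length. Of the 47 fully retained ones, 40 were covered by H3K9me3 over at least 50%. Within surviving domains, kept length was covered 92.1% by H3K9me2 and 27.7% by H3K27me3, edges given up 31.0% and 77.5%, and internal gaps 45.5% and 67.7%. H3K27me3 thus covered most of the uncovered length of each kind, but not of each domain: 91 of the 361 wholly lost domains held none.

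Whole loss took 77 of 473 domains (16.3%) with H3K9me2 over at least 50% of their length and 284 of 407 (69.8%) with less. The order held in each width class below 2 Mb. In the 100 to 500 kb class the shares were 50.4% of 113 and 82.5% of 257, at 500 kb to 1 Mb 17.1% of 111 and 56.3% of 112, and at 1 to 2 Mb 0.735% of 136 and 26.5% of 34. It held in each step of the score too, at 61.4% against 80.1%, 35.4% against 77.3% and 12.7% against 41.4% from the lowest to the third, and at 3 of 200 domains against 5 of 20 in the highest. Of the 254 domains with H3K9me2 over at least 50% and H3K27me3 under 50%, 9 were wholly lost (3.54%). Among the 131 domains with each of these marks under 50%, 90 were wholly lost (68.7%). The share was near that of domains with H3K27me3 over at least 50% and H3K9me2 under 50% (194 of 276, 70.3%). The 131 were narrower (median 255 kb against 457.5 kb) and had lower scores (median 0.401 against 0.542). In the knockdown lists, H3K27me3 covered 77.4% of the length of wholly lost domains, near the 77.1% of control cells, and H3K9me3 covered 10.5%, against 5.42%. The H3K9me3 list held 1996 domains in knockdown and 895 in control cells. Its cover was larger in the knockdown in every fate, and was 62.3% against 59.9% over all control lamin B1 domains. These lists have no replicate either.

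**Figure D4:**
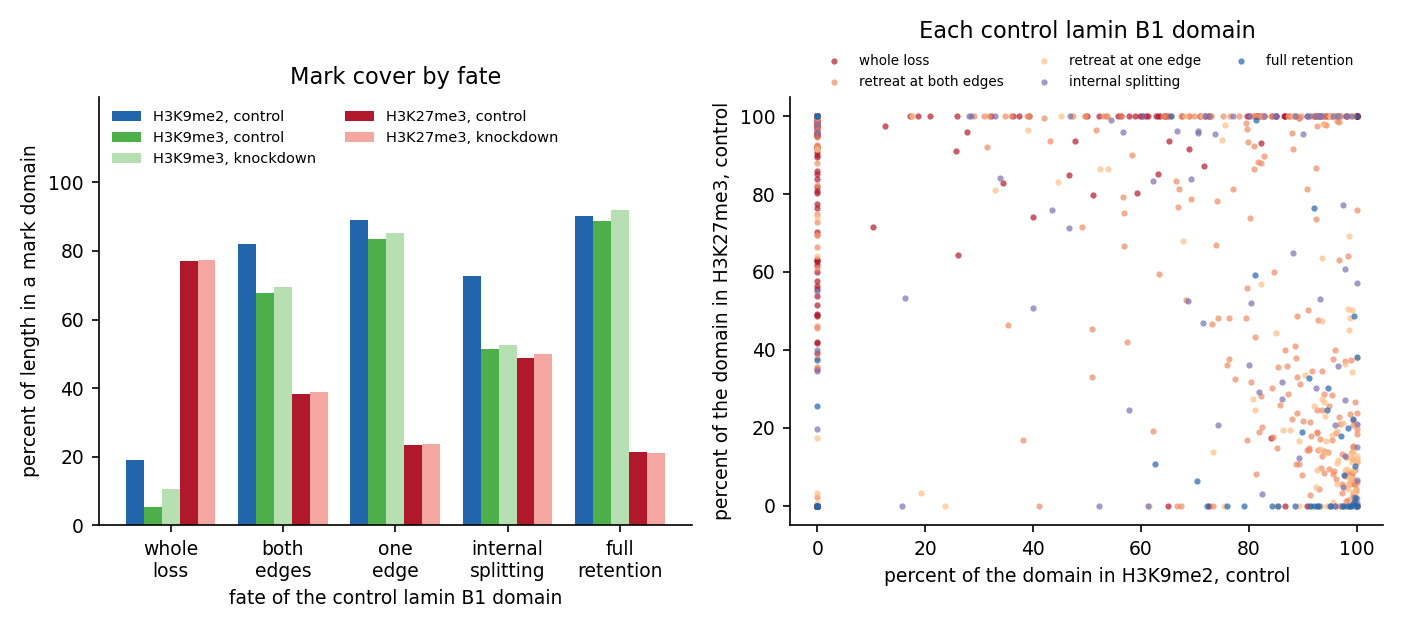
Left, percent of the length of control lamin B1 domains in a mark domain (y) by fate (x), for 3 marks in control and 2 in knockdown cells; H3K9me2 and H3K9me3 are lowest and H3K27me3 highest in wholly lost domains. Right, percent of each of the 880 domains in H3K27me3 (y) against H3K9me2 (x) in control cells, coloured by fate; points can lie on top of each other at 0 and 100%.

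The longest domains of each class illustrate these ranges. The widest control domain, 14080 kb at chr5:17230001-31310000, holds 5 cadherin genes (CDH6, CDH9, CDH10, CDH12 and CDH18, calcium-dependent adhesion proteins) and gave up 40 kb at each edge. H3K9me2 covered 99.4% of it and H3K27me3 3.09%. A domain of 7585 kb at chr21:17930001-25515000 with NCAM2, a neural adhesion gene, opened 1 gap of 265 kb. At chr2:75745001-80975000, 5230 kb with CTNNA2 and the REG genes of the gut and pancreas moved by 10 kb at each edge and counted as fully retained. By contrast, the widest wholly lost domain was of 1610 kb at chr2:210225001-211835000. It holds CPS1, which encodes the first enzyme of the urea cycle, and none of the 5 mark lists covered any of it. The next, 1540 kb at chr3:168190001-169730000, holds the transcription factor gene MECOM and was covered by H3K27me3 over its whole length, with no H3K9me2 or H3K9me3.

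Wholly lost domains were richer in genes than surviving ones. They held 4.06 protein-coding genes per Mb, against 1.78 with retreat at both edges, 1.66 with retreat at one edge, 2.13 with splitting and 1.72 with full retention. Edges given up and internal gaps each held 2.85 per Mb, and kept length 1.56. In all, 1988 of 20037 protein-coding genes had at least 50% of their body in control domains. Among those listed in the count table, enough reads for the test were found for 23.6% in wholly lost domains, 30.6% in edges, 52.5% in gaps (21 of 40) and 11.0% in kept length, against 65.0% of all such genes. Gaps thus held the largest share of genes with enough reads and kept length the smallest. The filter took control and knockdown libraries together, so these are not shares transcribed in control cells. At 500 kb to 1 Mb, whole loss took 69 of 167 domains with a protein-coding gene (41.3%) and 13 of 56 without (23.2%), and at 100 to 500 kb 148 of 194 (76.3%) and 121 of 176 (68.8%).

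Of all 1988 protein-coding genes in control domains, 1025 lay in kept length and 574 in wholly lost domains, and gene families stood around these counts. Olfactory receptor genes, which encode odorant receptors, had 254 of 390 members in control domains, 134 of them in kept length, a share near that of all genes, and 101 in wholly lost domains. Of 37 cadherin and protocadherin genes in domains, 18 lay in edges given up, 14 in kept length and 5 in wholly lost domains. Of 33 keratin and keratin-associated genes, 32 lay in kept length, and all 19 contactin, neurexin, neuroligin and leucine-rich adhesion genes did. Members of a family can lie side by side in 1 domain, so these are not counts of separate domains. The domain at chr21:29505001-31065000, with 36 genes that include a cluster of keratin-associated genes, kept 96.2% of its length. Cytochrome P450 genes went the other way, with 8 of 10 in wholly lost domains. The gene-richest lost domain was of 680 kb at chr1:152560001-153240000, with 35 genes that include the late cornified envelope (LCE) genes of the outer skin and involucrin (IVL). The next, 880 kb at chr11:4215001-5095000, held 31 genes, most of them olfactory receptors of the OR51 family. Of the olfactory receptor genes in domains, 0 had enough reads to be tested.

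RNA was read from the same contrast. In bulk libraries, fewer cells of a type and less RNA in each cell cannot be told apart. HNRNPK itself fell from 934, 967, 822 and 814 CPM (read counts scaled to the size of the library and normalised) in the 4 control libraries to 250, 223, 157 and 164 in the knockdown libraries. The groups did not overlap (log2 fold change -2.17 ± 0.06 SE, edgeR adjusted p = 7.3e-15). LMNB1, which encodes lamin B1, was at 169, 191, 166 and 171 CPM in control and 146, 147, 128 and 135 CPM in knockdown libraries, a small fall without overlap (log2 fold change -0.33 ± 0.05, edgeR adjusted p = 4.2e-06). The gene of the nucleoporin NUP210 fell by 1.43 on the log2 scale. Of 38 tested genes of lamina and tethering proteins, 10 rose and 18 fell, with a median log2 fold change of -0.06, where 35.5% of all tested genes rose and 36.1% fell. HCT116 is an epithelial line, and the 9 colon epithelium markers summed to 2732 to 3155 CPM in control and 4389 to 5269 CPM in knockdown libraries. Most of the sum was KRT8, KRT18 and KRT19. EPCAM, CDH1, KRT8 and KRT18 were higher and KRT19 lower, and CDX2 was not called (log2 fold change -0.0017). VIL1, CDX1 and LGR5 reached at most 0.44, 0.083 and 0.72 CPM in any library and were not tested. The 6 markers of other cells summed to 49.8 to 82.5 CPM and 77.3 to 122 CPM, carried by COL1A1, which was higher, while VIM and ACTA2 were lower. PTPRC and COL3A1 were below 0.5 CPM in each library. The part of either list in the results was not tested.

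Genes in lamin B1 domains rose more often than they fell, in every class of domain. Across all 13933 tested genes, 35.5% were called higher and 36.1% lower (edgeR quasi-likelihood test, Benjamini-Hochberg adjusted p below 0.05), with a median log2 fold change of -0.0042. In wholly lost domains 69 of 146 tested genes rose and 27 fell, with a median of 0.28. With retreat at both edges 69 of 126 rose and 23 fell (median 0.45), with retreat at one edge 17 of 40 and 6 (0.27), with splitting 36 of 80 and 12 (0.20), and with full retention 9 of 19 and 4 (0.14). Together 200 of 411 rose (48.7%) and 72 fell (17.5%). In kept length 59 of 117 rose (50.4%) and 15 fell, against 57 of 110 (51.8%) and 19 in edges given up and 69 of 146 (47.3%) and 27 in wholly lost domains. The shares of genes that rose were 42.5% to 54.8% over the 5 classes, and the differences between classes were not tested.

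Most of these genes were weakly expressed, and the background differs with level. Below an average log2 CPM of 2, 35.7% of 2817 tested genes rose and 19.7% fell. At that level 39 of 77 genes in wholly lost domains rose and 10 fell, 21 of 42 in edges rose and 3 fell, and 30 of 52 in kept length rose and 2 fell. Above a log2 CPM of 4, where 37.6% of all 8458 genes rose and 39.7% fell, 13 of 27 genes in wholly lost domains, 21 of 36 in edges and 7 of 21 in kept length rose, and 7, 10 and 8 fell. Rises by at least 1 on the log2 scale were called for 39 of the 146 genes in wholly lost domains and falls of that size for 11, against 7.47% and 8.28% of all tested genes. Below a log2 CPM of 2 such rises were called for 32 of the 77 genes in wholly lost domains and 683 of all 2817.

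Zinc finger genes with a ZNF number, most of which encode DNA-binding repressors in clusters on chromosome 19, made up 62 of the 200 genes that rose in control domains. Of the 86 tested in control domains, 62 rose and 2 fell, with a median log2 fold change of 0.61. Outside control domains 126 of 259 rose and 44 fell (0.20). Without them, 138 of 325 genes in domains rose (42.5%) and 70 fell (21.5%). The next domains were picked for their number of tested genes. In 1 wholly lost domain of 660 kb, at chr19:43825001-44485000, 11 of 14 tested genes rose and 0 fell, all of them zinc finger genes from ZNF45 to ZNF283. Retreat at both edges at chr19:57425001-57780000 went with a rise of 10 of 12 tested genes. In the split domain at chr19:36255001-37875000, which kept 72.2%, 6 of 13 rose. Zinc finger genes of a cluster are close in sequence, and the counting of reads that match several of them is not given in the sources used here.

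Knockdown domains without control bases showed the opposite. The 119 held 13.6 protein-coding genes per Mb, of which 66.1% were tested, against 4.06 per Mb in wholly lost domains. Of 207 tested genes in them, 33 rose (15.9%) and 122 fell (58.9%), with a median log2 fold change of -0.36. H3K27me3 covered 36.6% of their length in control cells, H3K9me3 17.2% and H3K9me2 11.7%. Their highest score was 0.912, and the 3 widest lay at chr4:3195001-3905000 (710 kb), chr4:1170001-1855000 (685 kb) and chr12:29705001-30355000 (650 kb).

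Named genes of wholly lost domains moved both ways. MINAR1, which encodes a membrane protein that binds the receptor NOTCH2, rose from 11.5, 10.9, 11.9 and 11.3 CPM in the control to 38.7, 46.5, 45.4 and 42.9 CPM in the knockdown libraries (log2 fold change 1.93 ± 0.08, edgeR adjusted p = 3.3e-13). It lies in a domain of 435 kb that was lost whole. Rises of 1.81, 1.42, 1.40 and 1.36 were seen for NLRP14, a gene of the NLR family active in germ cells, SNTB1, a syntrophin of the dystrophin complex, TAS2R5 and NCAM1, the neural cell adhesion molecule. TTC12, a factor for the assembly of cilia dyneins, lies in the same lost domain of 1020 kb on chromosome 11 as NCAM1 and went the other way, from 9.78, 10.1, 8.33 and 9.58 to 3.63, 3.42, 1.94 and 1.65 CPM (log2 fold change -1.82 ± 0.16, edgeR adjusted p = 1.0e-08). The antisense RNA FEZF1-AS1 fell by 1.99 and LIN7A, a polarity scaffold, by 1.41. These genes were picked by a rule that required no overlap of the 4 control and 4 knockdown libraries. Of all tested genes, 28.5% rose and 28% fell without overlap. Of the 107 lost domains with a tested gene, 49 held genes that rose and none that fell, 22 genes that fell and none that rose, and 2 held both.

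Larger relative rises were found at very low levels. They were picked for those values, outside the rule for named genes. ADAMTS12, a secreted metalloprotease gene in a wholly lost domain on chromosome 5, had 0 counts in the 4 control libraries and 1.91, 2.08, 1.77 and 1.90 CPM in the knockdown libraries. Taking 3 counts over the summed control libraries as a floor (0.041 CPM), it was at least 46.7-fold higher. ZNF300P1 was likewise at 0 in control and at 2.77, 2.15, 3.12 and 2.88 CPM in knockdown libraries, at least 66.6-fold higher, and its neighbour ZNF300 went from 0.0593, 0.125, 0.200 and 0.219 to 2.44, 2.97, 2.36 and 1.73 CPM. IPCEF1, which encodes a partner of the exchange factor cytohesin, went from 0.237, 0.459, 0.266 and 0.109 to 2.97, 3.42, 3.62 and 5.27 CPM. The groups did not overlap for any of the 4, which their choice by the size of the rise made likely. ADAMTS12 and ZNF300P1 passed the filter on low counts through the knockdown libraries alone.

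In domains that retreated at both edges, PEX5L, a relative of the peroxisomal import receptor, had the largest rise among genes with a mean log2 CPM of 1 or more, from 2.13, 2.17, 2.27 and 1.92 to 10.5, 12.6, 12.9 and 12.6 CPM (log2 fold change 2.51 ± 0.14, edgeR adjusted p = 1.3e-11). Its gene lies mostly in an edge given up by a domain that kept 39.3%. ANKFN1 rose by 2.25 and ASTN1, the neuronal migration gene astrotactin, by 1.99, both with their bodies mostly in kept length. ZNF136 and ZNF701 rose by 1.72 and 1.70 in edges given up. SLC35B3, a transporter of the sulfate donor PAPS into the Golgi, fell by 1.56 in a domain that kept 13.3%, SAMD5 fell by 1.54 and KSR2, a scaffold of the RAF and MEK kinases, by 1.33. At a single retreating edge, MAST4, a kinase gene, went from 0.474, 1.00, 0.666 and 0.985 to 4.02, 4.38, 4.80 and 4.45 CPM (log2 fold change 2.44 ± 0.23, edgeR adjusted p = 1.9e-08). ZC3H12B, UBE2CP5, ZNF329 and ZNF274 rose by 1.27, 1.06, 1.04 and 0.99, the last 3 in the same domain. PCSK6, a proprotein convertase, ARHGAP44 and EIPR1 fell by 1.06, 0.59 and 0.45.

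Split domains held TENM3, a teneurin of neuronal wiring, which rose from 1.66, 1.71, 1.40 and 1.42 to 5.34, 5.27, 6.49 and 7.0 CPM (log2 fold change 1.93 ± 0.18, edgeR adjusted p = 1.5e-08) with its body mostly in kept length. ZNF702P, FAM78B, SLC44A5 and ZNF525 rose by 1.72, 1.56, 1.36 and 1.24, and ZNF525 lies in an internal gap. MGMT, the repair enzyme of O6-methylguanine, lies mostly in kept length of a split domain and fell from 9.07, 7.10, 12.2 and 9.14 to 1.85, 2.08, 2.53 and 2.97 CPM (log2 fold change -1.99 ± 0.16, edgeR adjusted p = 2.9e-09). NMNAT3 and DUXAP8 fell by 1.10 and 0.86, and with the TruSeq libraries alone the call of DUXAP8 was lost (edgeR adjusted p = 0.14). Fully retained domains held MITF, the transcription factor of melanocytes, which rose from 2.96, 2.88, 1.87 and 1.92 to 6.00, 5.05, 4.55 and 4.53 CPM (log2 fold change 1.07 ± 0.16, edgeR adjusted p = 1.0e-05). FOXP1, a forkhead transcription factor gene in the same domain of 2090 kb, rose by 0.92. ZNF26, ZNF268 and GOLGA3 share another retained domain and rose by 0.87, 0.73 and 0.52, and WDR27 fell by 0.92. Genes were placed by their bodies, and promoters could lie elsewhere. Those of MITF, ZNF26, ZNF268 and GOLGA3 lay in kept length. MAST4 had its promoter in kept length too, though most of its body lay in an edge given up. The promoter of FAM78B lay in an internal gap, and those of FOXP1 and WDR27 lay outside control domains. So did those of NLRP14, KSR2, ZC3H12B, PCSK6, EIPR1 and SLC44A5, named above. By gene body, change of RNA was thus not limited to genes whose length left the lamin B1 list.

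**Figure D5:**
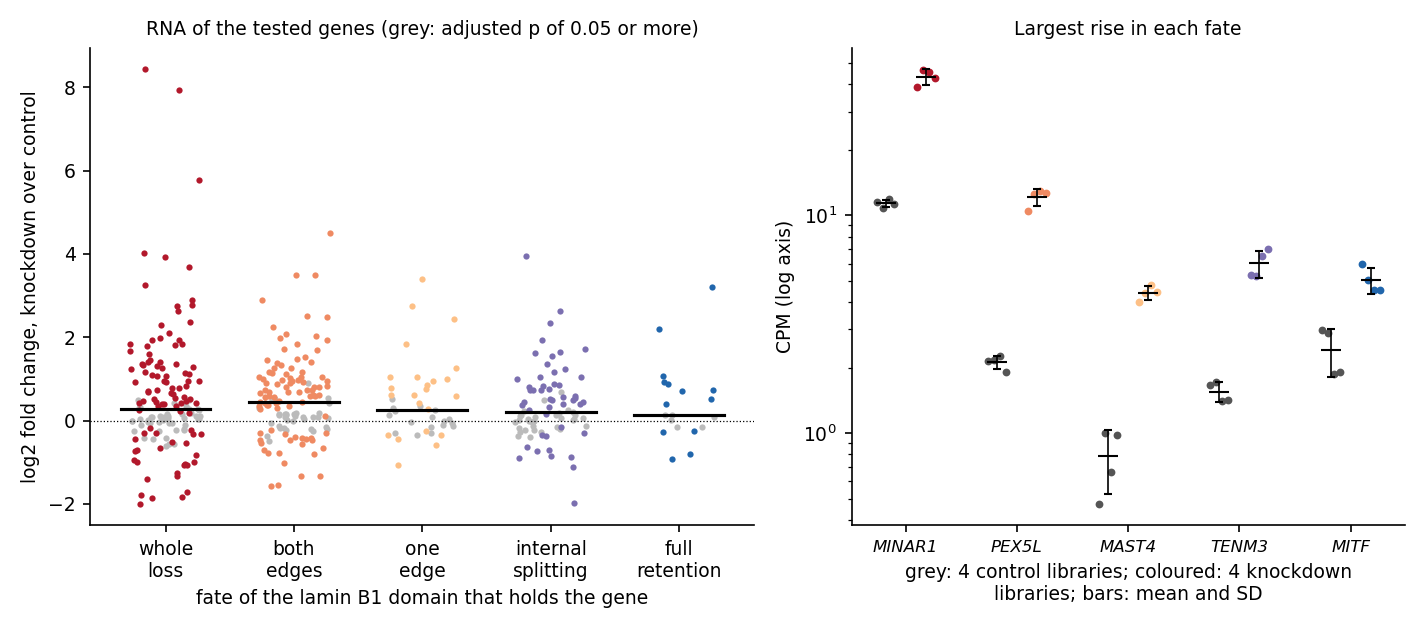
Left, log2 fold change of RNA, knockdown over control (y), for each tested gene by the fate of its control lamin B1 domain (x); coloured points were called, grey ones were not, and bars are medians, 0.28 in wholly lost and 0.14 in fully retained domains. Right, CPM on a log axis in the 4 control and 4 knockdown libraries, with mean and SD, for the gene with the largest rise named in each fate. The rule that picked these 5 genes required that the groups do not overlap.

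Read depth of the RNA libraries was 12107280 to 23633851 counts, and the depth behind the domain lists is unknown. The labels do not say that the libraries came from separate cultures, so p-values measure the spread between these libraries. Within each kit alone, the genes of wholly lost domains gave 65 rises and 22 falls of 155 tested (TruSeq) and 68 and 26 of 151 (Ligation). Over all tested genes, 28.5% rose and 29.2% fell with TruSeq, and 33.8% and 34.3% with Ligation. Counting with or without strand is not given in the sources used here, so genes that overlap an antisense partner, such as NCAM1, FEZF1-AS1 and TENM3, can share reads with it.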

How the data were processed

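Domains and marks were read from the 7 deposited lists, which give hg38 positions, a score and a width per domain. Per the submitters' processing notes, reads were handled with bcl2fastq 2.20, fastp 0.23.2, Bowtie2 2.5.1 and deepTools 3.1.3. The domain caller, the pooling of replicates and the unit of the score are not given in the sources used here. The domain score is the authors' own and was used to rank domains within a list and for the shared floor. RNA counts per gene were deposited by the authors as whole numbers, made with STAR 2.7.1a and featureCounts of Subread 2.0.6 per the submitters' processing notes.

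Fates were computed by base, and an edge had to move by over 10 kb to count. RNA was tested with the quasi-likelihood test of edgeR 4.0.16 under R 4.3.3, after filterByExpr and TMM, in a model with kit and treatment, with Benjamini-Hochberg adjustment and a threshold of 0.05. CPM are TMM-normalised, except in the sums over marker lists, which use the library totals. Standard errors of fold changes come from the F statistic. A gene belonged to a domain with at least 50% of its body in it, by RefSeq positions for GRCh38.p14, which have the same primary chromosomes as hg38. Promoters were found for 33 of the 41 named genes, 1 per gene. Some, such as those of MINAR1, PEX5L, ANKFN1, TENM3 and SLC44A5, lie at a start inside the gene body. The named genes were, per fate, the 5 largest rises and 3 largest falls called, with a mean log2 CPM of 1 or more and no overlap of the groups, plus HNRNPK, LMNB1 and lamina genes with a fold of at least 2. Lists were lamina and tethering, colon epithelium, other cells and the gene families. The members and lists were chosen with earlier results of these data known.

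Same-numbered RNA libraries share a kit and deviated together from their group means (r across genes 0.10, 0.42, 0.34 and 0.27). With the kit removed, as in the model, r was 0.058, 0.058, 0.0090 and 0.0090, and a replicate block was run as an alternative. Other alternatives changed the tolerance, the lists, the normalisation (DESeq2 1.42.0, upper quartile), the filter, the libraries and the assignment of genes. Steps were tested on simulated data. Python 3.11.15, pandas 2.3.3 and matplotlib 3.10.9 served for domains and plots.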

Additional observations from a re-analysis of the deposited data

Results flagged for a closer look

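Each of 84 groups of 4 libraries (41 named genes and the total counts, in control and knockdown) was examined for a library far from the other 3, which chance alone gives in about 1 group in 20. It was found in 2 groups. PEX5L was at 10.5 CPM in knockdown replicate 1, against 12.6 to 12.9 CPM in the other knockdown libraries. LMNB1 was at 191 CPM in control replicate 2, against 166 to 171 CPM in the other control libraries. Both genes kept their direction and their call with that library left out.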

How the results depend on the processing

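No fold change or count turned in sign under an alternative, but the order of the outcomes did: whole loss fell below retreat at both edges with the shared lowest score, the trimmed list, and the same score and width (values below). HNRNPK fell by 2.00 to 2.36 on the log2 scale in all of them. Of 691 values of named genes, 690 kept their direction and call, and DUXAP8 lost its call with the TruSeq libraries alone (-0.48). Most named genes were picked for large called changes in the main fit to the same counts, so a kept call was likely beforehand. The replicate block changed no call of a named gene and moved no count by over 1.5 times (69 genes higher and 27 lower in wholly lost domains). Leaving out 1 RNA library gave 68 to 75 genes higher and 24 to 29 lower there. The pooling of the domain lists and their depth limit what can be said of single domains.

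With no edge tolerance, retreat at both edges took 38.1%, at one edge 8.86% and full retention 2.5% of domains. With 50 kb these were 13.5%, 18.4% and 18.0%. With 5% of the width, retreat at both edges took 17.0%, splitting 7.05% and full retention 19.5%. With the lowest score shared by the lists, whole loss took 27.3% of domains, 85.2 Mb and 63.5% of the narrowest, both edges 39.4% and splitting 12.1%, and 76.4% of the length was kept. Without the lowest step of scores in each list, whole loss took 37.0%, both edges 36.4% and splitting 6.97%, edges gave up 90.3 Mb and gaps 6.60 Mb, and H3K9me2 covered 29.2% of lost domains. The next alternatives were chosen after seeing the data. With the trimmed control list, whole loss took 12.1% of domains, 33.3 Mb and 44.4% of the narrowest, both edges 49.3%, one edge 16.6% and splitting 15.7%, edges gave up 83.5 Mb, 81.3% was kept and H3K9me2 covered 29.8% of lost domains. With the same lowest score and width, whole loss took 30.8% and 96.7 Mb, both edges 38.8%, 75.9% was kept and H3K9me2 covered 26.6%. The TruSeq libraries alone gave 7 of 82 tested genes lower in split and 2 of 19 in fully retained domains, against 29.2% of all tested genes.

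With a mean of at least 50 counts, 35 of 74 genes (47.3%) were higher and 17 lower in wholly lost domains. With both edges 41 of 79 were higher, and with one edge 9 of 25. Of all 11442 genes at that filter, 37.8% were higher and 38.1% lower. With no filter 107 of 431 (24.8%) were higher in wholly lost domains, near the 24.7% of all 21564 genes, and 34 (7.89%) were lower, against 25.7%. At a log2 fold change of at least 1, 2195 genes were called in all, 39 higher and 11 lower in wholly lost domains, 30 and 5 with both edges, 7 and 1 with one edge, 13 and 2 with splitting and 3 and 0 with full retention. With whole gene bodies, 42 and 11 were called in wholly lost domains, 10 and 1 with one edge, 9 lower with both edges and 1 lower with full retention. With a tolerance of 50 kb, 10 were lower with both edges, 28 and 11 were called with one edge and 22 and 12 with full retention. With genes placed by lost or kept length, 138 and 50 were called in lost length and 59 and 15 in kept length. Causes were not tested.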

Other observations

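Other gene families of control lamin B1 domains varied in the part of their genes in kept length, where 1025 of 1988 protein-coding genes in domains lay. Here too, members of a family can share a domain. Of the GABA and glutamate receptor subunit genes, which encode the fast transmitter receptors of neurons, 24 of 43 lay in control domains, 15 of them in kept length and 4 in wholly lost domains. Voltage-gated potassium and sodium channel genes had 31 of 93 in domains, 14 in kept length and 7 in wholly lost domains. Genes of axon guidance (semaphorins, netrins, slits, ephrins and their receptors) had 16 of 69 in domains, 12 in kept length and 2 in wholly lost domains. Of the homeobox and related transcription factor genes, 23 of 162 lay in domains, 13 in kept length and 6 in wholly lost domains. Chemokine genes had 7 of 42 in domains, 6 in kept length. Taste receptor genes had 5 of 28 in domains, 1 in kept length and 3 in wholly lost domains, and ADAM and ADAMTS protease genes 11 of 39, 5 in kept length and 5 in wholly lost domains. UDP glucuronosyltransferase genes had 1 of 21 in domains, in a wholly lost one, and defensin, type I interferon, serpin and lamina genes 0.

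Further genes with large rises at low level were found after their values were seen. CACNA1E, a voltage-gated calcium channel gene in kept length, was at 0 in 3 control libraries and 0.219 CPM in the other, and at 1.19, 1.26, 1.77 and 1.40 CPM in the knockdown libraries. WDR49 in a wholly lost domain went from 0.0593, 0.0835, 0.200 and 0.164 to 1.52, 2.15, 2.61 and 2.23 CPM.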
